A study of Mus musculus with 6 samples.

Results

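Rab GTPases are small membrane-bound switches that direct vesicle traffic. The GTP-bound form of each Rab recruits its own effectors (motors, tethers and adaptors) to 1 kind of membrane, guanine nucleotide exchange factors load the GTP, GTPase-activating proteins end the signal, and escort proteins and GDI carry the prenylated GDP-bound form through the cytosol. In polarised epithelia Rab25, a close relative of Rab11a and Rab11b, acts on recycling endosomes beneath the apical surface, and it is the member of the family best known as epithelial.

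The Rab genes were taken from the expression table of mouse pancreatic ductal adenocarcinoma (PDAC) organoids by symbol: Rab, a number, and at most 1 letter and 1 further digit. This choice used no expression value. It gave 52 of 14254 listed genes. A further 7 symbols of the GENCODE annotation (Rab33a, Rab37, Rab39, Rab3c, Rab42, Rab44 and Rab9b) were not listed in the table and were not analysed here. All 52 had at least 10 normalised reads in at least 3 libraries and were tested. They were grouped by the route they are known for: 10 in recycling, 10 in traffic between endoplasmic reticulum (ER) and Golgi, 10 in secretion after the Golgi, 6 at the early endosome, 10 at the late endosome and lysosome, and 6 at the cilium or elsewhere.

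The organoids came from 1 tumour line, KPF_5.3G, and were grown in organoid medium with B27, nicotinamide, N-acetylcysteine, EGF, Noggin, R-spondin-1, gastrin and FGF-10. Controls (shCtrl, 3 biological replicates, genotype labelled WT) carried a control short hairpin RNA, and the knockdown (shJag1_3, 3 biological replicates) carried 1 lentiviral hairpin against Jag1, a ligand of the Notch receptors. The labels name no alleles of the line, and with 1 hairpin an effect of its sequence on other genes cannot be told apart from that of Jag1. Both groups come from the same line, and no other line was compared.

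Libraries held 22110664 to 35010147 reads on genes. Jag1 was at 412, 983 and 847 normalised reads in controls 1, 2 and 3 and at 226, 321 and 557 in knockdowns 1, 2 and 3. Each knockdown had less than the control of its number, but knockdown 3 lay above control 1. Both replicate 1 libraries stand apart from the other 4. The mitochondrial share of reads was 0.595%, 1.55% and 2.03% in controls against 0.555%, 1.02% and 1.20% in knockdowns, and its part in the results below was not tested. All 7 epithelial markers checked (Rab25, Epcam, Krt7, Krt8, Krt18, Krt19 and Cdh1) were listed. Rab25 is itself 1 of them. Their summed counts were 166340 to 235800 in controls against 218822 to 578804 in knockdowns. Of 5 markers each for acinar, fibroblast, immune and endothelial cells 1 was listed (Cela1, Pdgfra, Cd68 and Tek), and of 5 endocrine markers 0. Cela1, Pdgfra and Tek stayed at 62.1 normalised reads or less, whereas the macrophage marker Cd68 ran from 98.6 to 136 in controls and from 117 to 988 in knockdowns. The part of other cells in the results was not tested. In bulk samples fewer cells of a type and less RNA per cell cannot be told apart.

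Few of the 52 Rab genes differed between knockdown and control. A pair below is the control and the knockdown of the same number, a pairing that the labels do not state. Rab25, Rab17, Rab27a and Rab32 were higher in the knockdown of every pair and Rab34 was lower in every pair, and these 5 passed DESeq2 with the replicate number as a term at an adjusted p below 0.05. The other 47 did not pass. Over all 13997 tested genes this fit called 7.15% (4.57% higher and 2.58% lower), against 9.62% of the Rab genes (7.69% higher and 1.92% lower), so the family as a whole was called at about the background rate. All 3 pairs had the same sign in 27 of the 52 Rab genes (51.9%), against 42.0% of all tested genes. Agreement across pairs was thus not particular to the 5 that passed. The main test, limma on log2(normalised read count + 1) without the replicate term, called 0 of the 52, as it called 0% of all genes. At an unadjusted p below 0.05 limma had 6 Rab genes, 4 higher and 2 lower (the 5 above and Rab8b), beside 7.29% of all genes (4.62% higher and 2.68% lower). edgeR had 4, with Rab17 and Rab32 higher and Rab34 and Rab8b lower, beside 7.29% of all genes (4.18% higher and 3.11% lower). In edgeR Rab25 and Rab27a missed this unadjusted threshold as well. With the replicate term limma and edgeR also called 0 of the 52 at an adjusted p below 0.05, beside 0.0143% of all genes in each. DESeq2 without the term called 1 gene, Rab34, as lower, beside 1.24% of all genes (0.722% higher and 0.522% lower). Unless another fit is named, "passed" below refers to DESeq2 with the replicate term, which was taken up with earlier results of these data known.

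The calls depended on which replicates were in the fit. DESeq2 with the replicate term called 5 Rab genes higher (Rab1a besides the 4 above) and Rab34 lower without replicate 1, beside 15.1% of all genes (8.93% higher and 6.22% lower). It called Rab25 only, as higher, without replicate 2, beside 0.693% of all genes (0.443% higher and 0.25% lower), and likewise Rab25 only without replicate 3, beside 0.907% (0.629% higher and 0.279% lower). limma on replicates 2 and 3 only called 4 Rab genes higher (Rab25, Rab17, Rab27a and Rab1a) and 1 lower (Rab34), beside 9.62% of all genes (6.04% higher and 3.57% lower). Without control 1 limma called Rab25 higher and Rab34 lower, beside 2.1% of all genes (1.5% higher and 0.6% lower).

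Sequences before the transcription start are shown for 3 of the 4 genes that passed as higher, because each holds the E-box CAGGTG or its reverse complement CACCTG, the letters to which repressors of the Zeb and Snail families are known to bind. They come from RefSeq (GRCm38.p6), run 5′ to 3′ on the strand of the gene and end at the RefSeq start or, for Rab25, at the first base of the GENCODE exon. The E-boxes are in capitals. The Rab25 window is chr3:88548301-88548529 (minus strand, outside the annotated gene), that of Rab17 is chr1:90967668-90967917 (minus strand, intronic in the GENCODE models), and that of Rab27a is chr9:73044560-73044809 (plus strand, outside the annotated gene).
Rab25: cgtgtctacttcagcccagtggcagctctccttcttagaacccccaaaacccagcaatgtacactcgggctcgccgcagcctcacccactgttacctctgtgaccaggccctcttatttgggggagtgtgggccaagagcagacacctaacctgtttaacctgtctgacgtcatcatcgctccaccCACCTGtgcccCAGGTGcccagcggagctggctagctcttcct
Rab17: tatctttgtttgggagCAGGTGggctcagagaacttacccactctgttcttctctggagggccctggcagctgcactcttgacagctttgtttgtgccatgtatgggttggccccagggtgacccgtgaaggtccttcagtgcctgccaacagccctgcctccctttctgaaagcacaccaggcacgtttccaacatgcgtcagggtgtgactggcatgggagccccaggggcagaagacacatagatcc
Rab27a: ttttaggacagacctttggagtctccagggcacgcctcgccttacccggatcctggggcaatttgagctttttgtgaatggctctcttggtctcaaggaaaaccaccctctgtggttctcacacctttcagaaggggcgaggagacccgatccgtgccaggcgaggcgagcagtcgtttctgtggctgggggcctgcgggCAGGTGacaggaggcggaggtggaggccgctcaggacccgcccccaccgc

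Rab25 holds 2 E-boxes close together, beginning 64 and 53 bases before the RefSeq start, Rab27a holds 1 at 50 bases before a start and Rab17 holds 1 at 234 bases. The E-box was searched on both strands in the 250 bases before each RefSeq start. Of 43 Rab genes with such a window 9 held it (20.9%), against 19.4% of all 27025 genes with a window. Of the same 43, 2 genes (4.65%), Rab25 and Rab23, held at least 2, against 2.39% of all genes. Rab3a, Rab5c, Rab9, Rab15, Rab19 and Rab23 also held the E-box and did not pass. Their limma changes ran from -0.34 for Rab3a to 1.58 for Rab19. RefSeq gives Rab27a a second start, and the window before it (chr9:73063898-73064147) had no match. The windows of Rab32 and Rab34 had none either. A match describes these letters only. No file here measured binding.

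Rab25 was the recycling gene with the largest difference and the largest of the 52. It lies on chromosome 3 from 88542029 to 88548300 (minus strand, GRCm38, ENSMUSG00000008601). By normalised count it had 492, 86.1 and 63.5 in controls 1, 2 and 3 against 1156, 736 and 543 in knockdowns 1, 2 and 3. Every knockdown library lay above every control library, but knockdown 3 was close to control 1, and within each group replicate 1 was the highest. The means were 214 ± 241 and 811 ± 314 (SD, n = 3 each), a 3.79-fold difference. The pairs differed by 1.23, 3.08 and 3.07 on the log2 scale. limma gave a log2 change of 2.46 (SE 0.77, adjusted p = 0.626; adding the replicate term gave an adjusted p of 0.141), and DESeq2 with the replicate term 2.46 (SE 0.39, adjusted p = 2.21e-07). The two-sided exact permutation p was 0.1, the smallest that 3 against 3 libraries allow. Among the other epithelial markers Epcam, Krt8 and Krt19 passed as higher in the same fit, and Krt7, Krt18 and Cdh1 did not. The macrophage marker Cd68 passed as higher too (1.67, adjusted p = 0.00794 in that fit), with overlapping groups, and Cela1, Pdgfra and Tek did not pass. The part of a shift among cells in the Rab25 difference was not tested. Rab25 was the only Rab gene still called by DESeq2 with the term when replicate 2 or replicate 3 was left out, with changes of 2.12 and 2.15 (adjusted p = 0.00125 and 0.00435).

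Rab17, which acts in apical recycling and transcytosis of polarised cells, was the other recycling gene that passed. It lies on chromosome 1 from 90958133 to 90969661 (minus strand). It was low, with normalised counts of 20.7, 42.5 and 29.9 in controls 1, 2 and 3 against 40.3, 160 and 97.0 in knockdowns 1, 2 and 3. The groups overlapped, since control 2 lay above knockdown 1, while each knockdown lay above the control of its number. The means were 31.0 ± 10.9 and 99.0 ± 59.7 (SD, n = 3 each), and DESeq2 with the replicate term gave a log2 change of 1.54 (SE 0.47, adjusted p = 0.0194; limma adjusted p = 0.668). Without replicate 2 or replicate 3 it was no longer called.

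**Figure D1:**
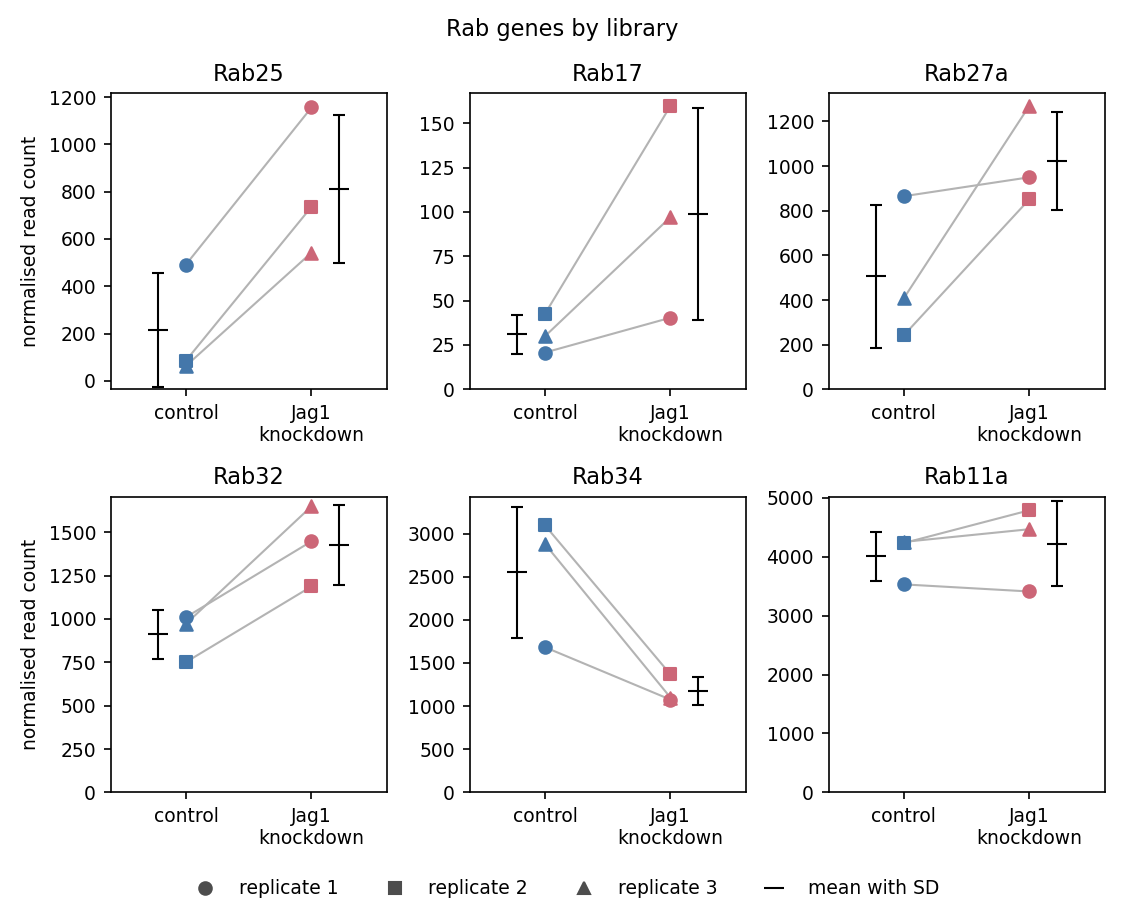
Normalised read counts (vertical axes, linear, each panel with its own scale) of 6 Rab genes in control and Jag1 knockdown organoids. Symbols mark replicates 1 to 3, grey lines join libraries of the same number, and black bars give the mean and SD of 3 libraries. Rab25, Rab17, Rab27a and Rab32 are higher and Rab34 is lower in the knockdown of each pair, and Rab11a overlaps between groups.

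The general recycling Rabs did not pass. Rab11a, which organises the recycling endosome in most cells, had 3530, 4232 and 4252 normalised reads in controls against 3410, 4789 and 4467 in knockdowns, a limma change of 0.07 (SE 0.19). Rab35, which returns cargo from endosomes to the plasma membrane, had 2901, 2187 and 2341 in controls against 3125, 2314 and 2327 in knockdowns, a limma change of 0.06 (SE 0.20). The groups of both overlapped. For Rab11a 1 knockdown lay below all controls and the other 2 above them. With scaling by spike-in reads both changes had the opposite sign, at -0.11 for Rab11a and -0.12 for Rab35. Exons of an unlisted gene on the same strand cover 65.0% of those of Rab4b, so its counts are uncertain. The other 6 recycling genes (Rab4a, Rab4b, Rab11b, Rab14, Rab15 and Rab22a) had limma changes from -0.40 for Rab4a to 0.13 for Rab22a. The median of the 10 recycling genes was 0.08 (pair medians 0.05, 0.22 and 0.07), against 0.00 for all tested genes. Rab15 followed the replicate number more than the group, at 1505, 196 and 207 in controls 1, 2 and 3 and at 1164, 592 and 108 in knockdowns 1, 2 and 3.

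Per kilobase of exon, Rab25 was a minor part of the Rab11 subfamily in controls 2 and 3. It made up 14.8%, 2.62% and 2.0% of the summed reads per kilobase of Rab11a, Rab11b and Rab25 in controls 1, 2 and 3 against 29.1%, 17.2% and 14.2% in knockdowns 1, 2 and 3. The share was higher in the knockdown of each number, and knockdown 3 lay just below control 1. The means were 6.49% ± 7.24 and 20.2% ± 7.90 (SD, n = 3 each). The two-sided exact permutation p was 0.2 (adjusted p = 0.42 over the 7 shares tested). With 3 against 3 libraries this p cannot fall below 0.1, so no share could pass and the test does not decide the question. The Rab11a share was lower in each knockdown than in the control of its number, and that of Rab1b among Rab1a and Rab1b was lower in pair 3 only (44.0% against 38.3%). Rab11a stayed the most abundant of these 3 genes in every library, with 48.0% to 74.9% of the sum.

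**Figure D2:**
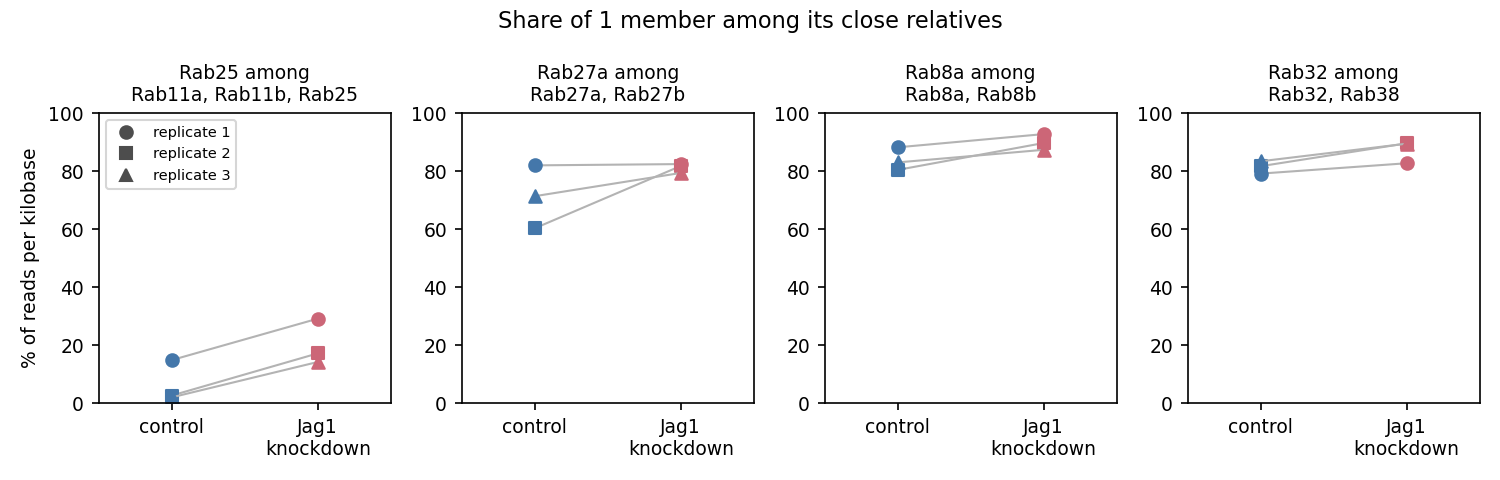
Share of 1 Rab gene in the summed normalised reads per kilobase of its close relatives (vertical axes, percent from 0 to 100) by group, with replicates joined by number. The Rab25 share is 2.0% to 14.8% in controls against 14.2% to 29.1% in knockdowns, and each of the 4 shares drawn, out of 7 tested, is higher in the knockdown of every pair. None of the 7 passed the exact permutation test (adjusted p of 0.42 or more).

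Among Rabs of secretion after the Golgi, Rab27a passed. Rab27a docks secretory vesicles, lysosome-related organelles and exosome-bearing compartments at the plasma membrane. It lies on chromosome 9 from 73044854 to 73097629 (plus strand). By normalised count it had 865, 242 and 409 in controls 1, 2 and 3 against 950, 852 and 1271 in knockdowns 1, 2 and 3. Controls 2 and 3 were low, and control 1 lay just above knockdown 2, so the groups overlapped. The pairs differed by 0.13, 1.81 and 1.63 on the log2 scale, that is, by little in pair 1. The means were 505 ± 322 and 1024 ± 219 (SD, n = 3 each), with a log2 change of 1.20 in DESeq2 with the replicate term (SE 0.35, adjusted p = 0.0125; limma 1.19, adjusted p = 0.668). The call was lost without replicate 2 and without replicate 3. Its relative Rab27b had 524, 440 and 452 normalised reads in controls against 559, 523 and 911 in knockdowns (limma change 0.45, SE 0.27).

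Rab8a and Rab8b, both of which carry vesicles to the plasma membrane and the cilium, lay on opposite sides of 0. Rab8b had 477, 593 and 569 normalised reads in controls against 335, 372 and 438 in knockdowns, and every knockdown lay below every control. Its limma change was -0.52 (SE 0.21, adjusted p = 0.671; DESeq2 with the replicate term, adjusted p = 0.139), which did not pass. Rab8a had 3515, 2400 and 2742 in controls against 4225, 3191 and 2979 in knockdowns (limma change 0.27, SE 0.22), and Rab8a made up 80.4% to 88.2% of both genes per kilobase in controls against 87.3% to 92.7% in knockdowns (exact permutation p = 0.2, adjusted p = 0.42). Rab10, the most abundant of this route per kilobase and known for basolateral and GLUT4 traffic, had 5031, 5259 and 5795 in controls against 3920, 3899 and 5618 in knockdowns (limma change -0.28, SE 0.19). Its knockdown 3 lay among the controls and the other 2 knockdowns below them. The other 5 genes (Rab3a, Rab3b, Rab3d, Rab13 and Rab26) ran from -0.34 for Rab3a to 0.41 for Rab3b. The median of the 10 genes was 0.20 (pair medians 0.11, 0.11 and 0.19), and without control 1 it was -0.08.

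Between ER and Golgi 0 of 10 genes passed. Rab1a and Rab1b, which act in transport from ER to Golgi, had the highest changes of this route. Rab1a had 8577, 6839 and 6719 normalised reads in controls against 8630, 9840 and 11247 in knockdowns. The groups did not overlap, but control 1 and knockdown 1 were nearly equal, and the limma change was 0.43 (SE 0.18, adjusted p = 0.690). It was called only where replicate 1 was left out, as given above. Rab1b had 5301, 3310 and 3163 in controls against 6844, 5104 and 4182 in knockdowns. It was higher in each pair (limma change 0.47, SE 0.28) with an adjusted p of 0.0631 in DESeq2 with the replicate term. Rab2a, which acts at the ER-Golgi intermediate compartment, had 6953, 8561 and 8377 in controls against 6944, 7464 and 8567 in knockdowns (limma change -0.06, SE 0.17), so the groups overlapped.

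The 2 ER and Golgi genes with the lowest changes were both near the bottom of the range of levels. Rab6b, a Golgi Rab best known from neurons, had 7.46, 86.1 and 63.5 normalised reads in controls against 7.89, 35.6 and 19.1 in knockdowns (limma change -0.95, SE 0.98). Rab2b had 21.5, 66.6 and 73.5 in controls against 14.9, 27.0 and 44.3 in knockdowns (limma change -0.83, SE 0.62). Both were lowest in replicate 1 of either group, and their groups overlapped. Exons of Tox4 and of an unlisted transcript overlap those of Rab2b on the opposite strand, and these libraries do not mark the strand. The counts of Rab43 are uncertain too, since an unlisted gene on the same strand shares 75.4% of its exon length. The remaining 5 genes (Rab6a, Rab18, Rab30, Rab33b and Rab43) ran from -0.39 for Rab30 to 0.22 for Rab43. The median of the 10 genes was -0.14 (pair medians 0.02, -0.24 and 0.01).

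No early endosome gene passed, and all 6 stayed within 0.5 of 0 on the log2 scale in limma. Rab5c, the most abundant Rab5 form here per kilobase and part of the machinery of early endosome fusion, had 6718, 4941 and 5489 normalised reads in controls against 6742, 5527 and 5902 in knockdowns (limma change 0.09, SE 0.18; -0.09 with spike-in scaling). Rab21, which accompanies integrins into endosomes, had 2712, 3220 and 3292 in controls against 2280, 3232 and 3416 in knockdowns (limma change -0.06, SE 0.21, and 0.12 without knockdown 1). The groups of both overlapped. Rab5a, Rab5b, Rab20 and Rab31 were at -0.24, -0.28, -0.03 and 0.19.

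At the late endosome and lysosome, Rab32 passed. Rab32 serves lysosome-related organelles and also sits on mitochondria. It lies on chromosome 10 from 10545002 to 10558265 (minus strand). By normalised count it had 1010, 751 and 972 in controls 1, 2 and 3 against 1447, 1187 and 1649 in knockdowns 1, 2 and 3, with every knockdown above every control. Among the 5 genes that passed it had the most even pairs, at 0.52, 0.66 and 0.76 on the log2 scale. The means were 911 ± 140 and 1428 ± 232 (SD, n = 3 each), a 1.57-fold difference, and DESeq2 with the replicate term gave 0.65 (SE 0.18, adjusted p = 0.0105; limma adjusted p = 0.635). It was not called by that fit without replicate 2 or without replicate 3, nor by limma on replicates 2 and 3 only (adjusted p = 0.111). Its relative Rab38 had 180, 114 and 131 normalised reads in controls against 204, 93.4 and 131 in knockdowns, with overlapping groups.

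Rab7, the main Rab of late endosomes and their fusion with lysosomes, had 6221, 6523 and 7102 normalised reads in controls against 6017, 6151 and 6633 in knockdowns (limma change -0.08, SE 0.14). Rab24, linked to autophagy, had 1667, 2382 and 2018 in controls against 1868, 2708 and 1662 in knockdowns (limma change 0.02, SE 0.24; its sign differed between pairs and under several settings). Exons of Prelid1 on the opposite strand cover 62.4% of the exon length of Rab24, so its counts are uncertain. The other 6 genes of this route (Rab7b, Rab9, Rab12, Rab29, Rab36 and Rab39b) ran from -1.25 for Rab7b to 0.15 for Rab9. Rab7b was low, with a highest control of 55.1 and a highest knockdown of 28.3. The median of the 10 genes was -0.05.

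Rab34 was the 1 Rab gene that passed as lower. It is known for the assembly of primary cilia and for positioning lysosomes near the Golgi, and was grouped with the cilium. It lies on chromosome 11 from 78188430 to 78192193 (plus strand). By normalised count it had 1683, 3095 and 2879 in controls 1, 2 and 3 against 1075, 1368 and 1099 in knockdowns 1, 2 and 3. Every knockdown lay below every control, and control 1 was the lowest control. The means were 2552 ± 761 and 1181 ± 162 (SD, n = 3 each), and the pairs differed by -0.65, -1.18 and -1.39 on the log2 scale. limma gave -1.07 (SE 0.27, adjusted p = 0.604), DESeq2 with the replicate term -1.07 (SE 0.22, adjusted p = 1.33e-04), and the two-sided exact permutation p was 0.1, the smallest possible. Rab34 was also the 1 Rab gene called by DESeq2 without the term (adjusted p = 0.0382). It was not called by DESeq2 with the term without replicate 2 or without replicate 3.

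Of the other 5 cilium and remaining genes 0 passed. Rab19 had the second highest limma change of the family, 1.58, with an SE of 1.16 (adjusted p = 0.819). Its counts were 77.9, 3.45 and 8.72 in controls against 128, 30.7 and 21.4 in knockdowns, and replicate 1 exceeded the others in both groups. Rab40c, which carries a SOCS box and recruits a ubiquitin ligase, had 611, 788 and 857 in controls against 869, 931 and 764 in knockdowns (limma change 0.19, SE 0.20). Rab23, a brake on Hedgehog signalling, and Rab28 and Rab40b were at -0.27, 0.18 and -0.49.

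**Figure D3:**
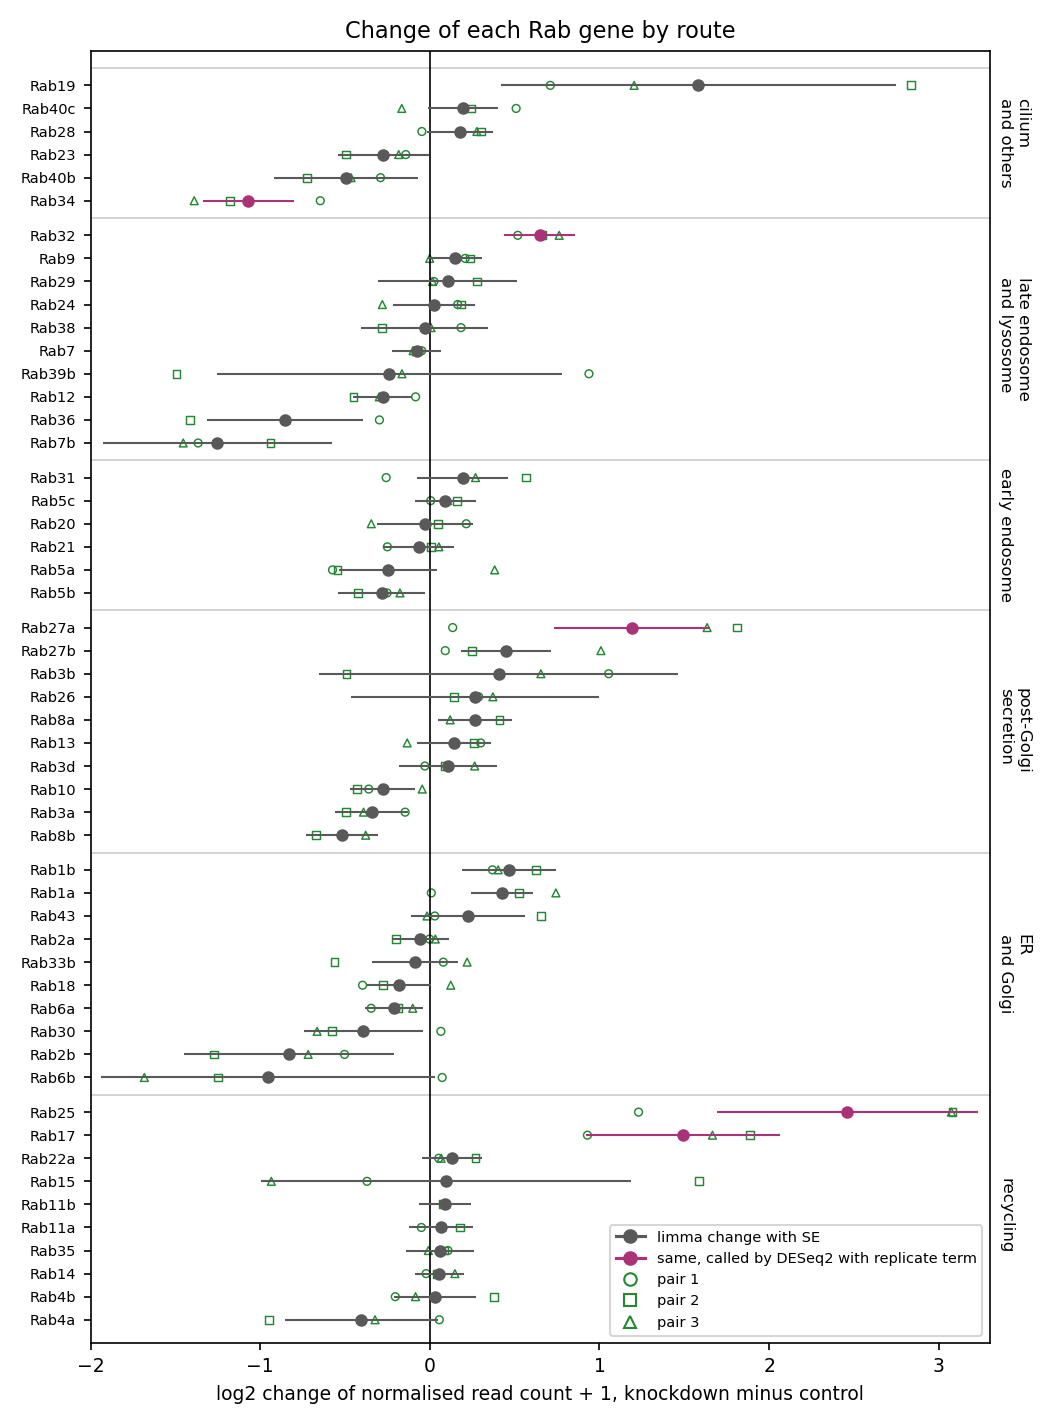
Change of each of the 52 Rab genes by route (horizontal axis, log2 of normalised read count + 1, knockdown minus control). Filled points are limma changes with their SE, coloured where DESeq2 with the replicate term called the gene, and open symbols are the 3 pairs. Of the 52 genes 41 lie within 0.5 of 0, and Rab25 lies farthest from it at 2.46.

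Over the 52 genes the changes were small. The median limma change was 0.04, against 0.00 for all tested genes, and 41 of 52 (78.8%) stayed within 0.5 of 0, against 75.5% of all genes. A change beyond 1 on the log2 scale was seen in 6 Rab genes (11.5%), against 7.72% of all genes. In 5 Rab genes (9.62%) the groups did not overlap (Rab25, Rab32 and Rab1a higher, Rab34 and Rab8b lower), against 11.7% of all genes (6.29% higher and 5.44% lower), so this share is near the background. Control 1 differed from the mean of controls 2 and 3 by more than 1 on the log2 scale in 11 Rab genes (21.2%), against 24.4% of all genes. The spread of changes across the Rab genes was smaller in pair 1 (SD 0.44 on the log2 scale) than in pairs 2 and 3 (SD 0.92 and 0.77), as it was across all genes (0.47, 0.92 and 0.86).

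The levels of the Rab genes per kilobase of exon spanned from 3662 normalised reads per kilobase for Rab2a to 4.67 for Rab36, as means over the 6 libraries. Rab2a, Rab5c, Rab7, Rab1a, Rab1b and Rab10 together made up 50.2% of the sum over the 52 genes. Rab2a lay above Rab5c in every library, whereas Rab5c, Rab7, Rab1a and Rab1b overlapped with their neighbours in this order. By group mean Rab25 ranked 35 of 52 in controls against 18 in knockdowns, Rab27a 34 and 28, Rab32 19 and 13, and Rab34 9 and 17. The summed level of the 52 genes was 28020 to 28873 normalised reads per kilobase in controls against 29110 to 29992 in knockdowns. Over all tested genes this sum was 7.98e+06 to 9.15e+06 in controls against 8.29e+06 to 9.42e+06 in knockdowns, so those ranges overlapped. The difference of the Rab sums was not tested. With spike-in scaling the median Rab change was negative, as given below.

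**Figure D4:**
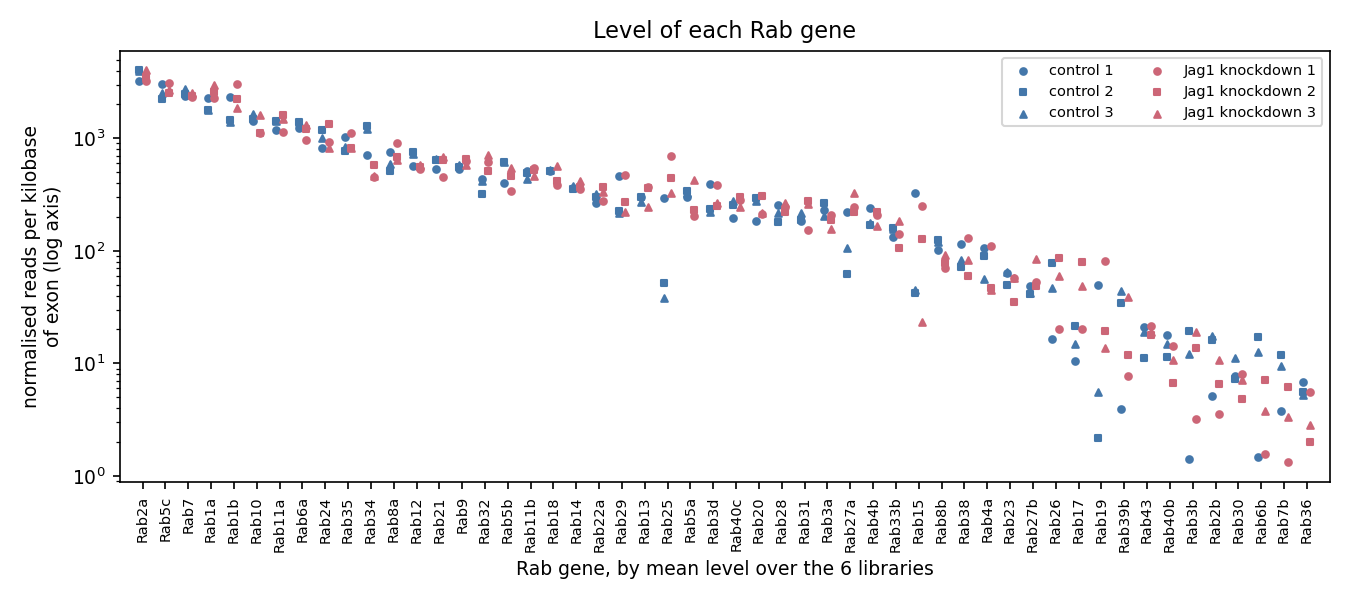
Level of each Rab gene in the 6 libraries (vertical axis, normalised reads per kilobase of exon, log scale), ordered by the mean over libraries. Housekeeping members such as Rab2a, Rab5c and Rab7 lie close together across libraries. Rab25, Rab15, Rab19, Rab3b, Rab6b and Rab39b spread over more than a factor of 10.

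Regulators and effectors of the Rab genes were taken from 6 lists with 113 tested genes. DESeq2 with the replicate term called 7 higher and 4 lower among them, beside 7.15% of all genes, and limma called 0. The 12 recycling effectors had 1 call, Myo5b, the motor that Rab11 and Rab25 engage at recycling endosomes. Myo5b had 1680, 356 and 321 normalised reads in controls against 1789, 1110 and 1170 in knockdowns. Like Rab25, it was low in controls 2 and 3, but its groups overlapped (control 1 above knockdowns 2 and 3) and pair 1 differed by only 0.09 on the log2 scale (DESeq2 with the replicate term 1.21, SE 0.35, adjusted p = 0.0127).

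Of the 20 secretory effectors 2 passed as higher and 0 as lower, beside 4.57% and 2.58% of all genes. Both bind Rab27, but Sytl1, Sytl4, Sytl5, Exph5, Unc13d and Rph3al of the same list did not pass. Their changes in that fit ran from 0.06 for Sytl5 to 0.97 for Sytl4. Effectors of Rab27 were not tested as a set. Mlph (melanophilin), which links Rab27a to myosin Va, had 1644, 960 and 1187 normalised reads in controls against 1983, 2916 and 3681 in knockdowns, with every knockdown above every control (DESeq2 with the replicate term 1.18, SE 0.30, adjusted p = 0.00384; limma adjusted p = 0.604). Sytl2, a synaptotagmin-like protein that tethers Rab27 vesicles to the membrane, had 67.9, 9.19 and 6.23 in controls against 88.6, 47.9 and 143 in knockdowns (2.32, SE 0.75, adjusted p = 0.0328 in DESeq2 with the replicate term). Its groups overlapped, since knockdown 2 lay below control 1. The medians of the recycling and secretory effectors were 0.02 and 0.14 in limma.

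**Figure D5:**
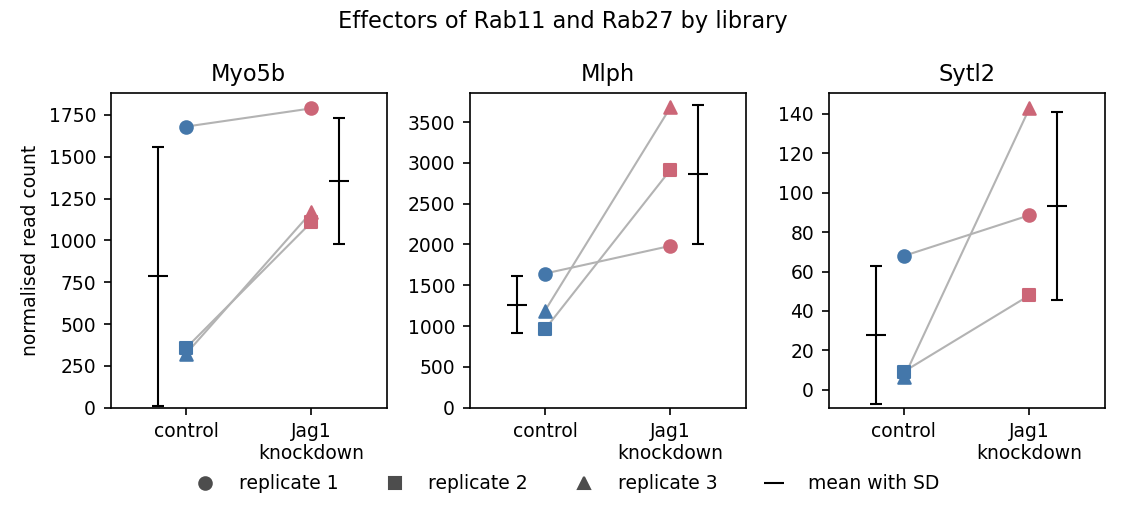
Normalised read counts (vertical axes, linear, each panel with its own scale) of Myo5b, Mlph and Sytl2 by group, with replicates joined by number and black bars for the mean and SD of 3 libraries. In all 3 genes the difference in pair 1 is smaller than in pairs 2 and 3.

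None of the 21 endosomal effectors and 8 escort, prenylation and GDI genes passed. Appl2, an adaptor on early endosomes, was the most abundant of the former, with 3374, 4974 and 4088 normalised reads in controls against 3035, 8308 and 4216 in knockdowns (limma change 0.21, SE 0.37, and -0.19 without knockdown 2). Gdi2, which retrieves Rabs from membranes and had the highest mean count of the latter, had 9739, 8322 and 7804 in controls against 9986, 9156 and 9603 in knockdowns (limma change 0.16, SE 0.16; -0.02 with spike-in scaling).

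Among 15 exchange factors with a DENN domain 1 passed as higher and 2 as lower, beside 4.57% and 2.58% of all genes. Dennd1c, of the group that activates Rab35, had 205, 122 and 123 normalised reads in controls against 367, 332 and 224 in knockdowns, with groups that did not overlap (DESeq2 with the replicate term 1.04, adjusted p = 0.00847). Dennd1a of the same group was lower in each pair, at 438, 239 and 216 in controls against 311, 102 and 115 in knockdowns. Its groups overlapped and it did not pass (-0.86, adjusted p = 0.0502 in the same fit). Dennd1b was at 0.05 and did not pass. Dennd6a, an exchange factor of Rab14, had 1539, 1084 and 1306 in controls against 778, 681 and 1069 in knockdowns (-0.65, adjusted p = 0.0475 in the same fit), and Dennd5a was at -0.52 (adjusted p = 0.0443). Among 37 GTPase-activating proteins with a TBC domain 3 passed as higher (Tbc1d9, Tbc1d2 and Grtp1) and 2 as lower (Tbc1d16 and Usp6nl). The same 4.57% and 2.58% of all genes stand beside these counts. Tbc1d9 had 42.3, 13.8 and 24.9 in controls against 74.5, 135 and 125 in knockdowns (2.11, adjusted p = 0.00786). Tbc1d2, an activator of GTP hydrolysis on Rab7, had 826, 969 and 871 in controls against 957, 2025 and 1952 in knockdowns (0.82, adjusted p = 0.0231), and Tbc1d16 had 976, 1309 and 1330 in controls against 909, 623 and 436 in knockdowns (-0.93, adjusted p = 0.0403), all in DESeq2 with the replicate term.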

How the data were processed

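RNA sequencing was done on 6 organoid samples with libraries of an Illumina TruSeq kit that does not mark the strand, per the labels' protocols. Tools named in the submitters' processing notes are STAR 2.5.2b, Trimmomatic and DESeq2 1.32.0, with the GRCm38 build. The counting tool is not given in the sources used here. Each deposited table gives a signal for every gene, the read count that the authors divided by 1 factor per library (a normalised count): 100% of values were whole multiples of 1 step within 0.001 of a read, so whole reads were recovered. The 6 deposited tables were identical and 1 was used. Symbols matched 14219 of 14254 genes (GENCODE release M21), and 48 spike-ins entered no test.

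limma 3.58.1 (R 4.3.3, trend) was run on log2(normalised count + 1) of the 13997 genes reaching 10 normalised reads in 3 or more libraries. p-values were adjusted over all of these by the Benjamini-Hochberg method, with a threshold of 0.05. edgeR 4.0.16 (quasi-likelihood, TMM) and DESeq2 1.42.0 (Wald test) were run on recovered reads, and each fit was checked on simulated data. The simulation gave libraries of the same number a shared effect, so it cannot show whether the numbers are pairs in the organoid data. Its spread was set and not taken from these libraries, so it does not give their rate of false calls. In the organoid libraries, deviations from group means correlated at r = 0.68, 0.57 and 0.44 for numbers 1, 2 and 3. The numbers were therefore treated as pairs. However, 2 differently numbered pairs, control 3 with knockdown 2 and control 2 with knockdown 3, also exceeded 0.1 (r = 0.38 and 0.37). What a number means is not given in the labels. Members, routes, lists and tests were chosen with earlier results of these data known. Values by library are given for Rab25, members called by any fit, the 2 most abundant members per kilobase of each route, the 3 largest changes in each direction among members whose higher group mean reached 50, and some relatives of these. From each list of regulators up to 3 called genes or else the most abundant were named, and Dennd1a and Dennd1b were added beside Dennd1c. Close relatives may share reads, which cannot be checked here.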

Additional observations from a re-analysis of the deposited data

How the results depend on the processing

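No Rab gene was called by limma or edgeR, with or without the replicate block, and the block changed no call of a Rab gene in those fits. DESeq2 with the replicate block called 4 Rab genes higher and 1 lower, and 7 regulators and effectors higher and 4 lower. It called 4.57% of all genes higher and 2.58% lower. DESeq2 without the block called 1 Rab gene lower and 1 regulator higher, beside 0.522% of all genes lower and 0.722% higher. limma on replicates 2 and 3 only called 4 Rab genes higher and 1 lower, and 8 regulators higher and 3 lower. That fit called 6.04% of all genes higher and 3.57% lower. Leaving out 1 library in turn, limma called 0 to 1 Rab genes higher, 0 to 1 lower and 0 to 2 regulators higher, and the calls came without control 1. Without control 1 limma called 1.5% of all genes higher and 0.6% lower. The fits without 1 replicate number were added after seeing the data: DESeq2 with the block called 5, 1 and 1 Rab genes higher without replicates 1, 2 and 3, and without replicate 1 also 1 Rab gene lower, 10 regulators higher and 4 lower. Of all genes these fits called 8.93%, 0.443% and 0.629% higher, and 6.22% lower without replicate 1. The cause of the differences between fits was not tested.

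All 21 alternatives run for Rab25 reuse the same libraries, in which every knockdown lay above every control. Of these 21, 6 had an adjusted p below 0.05. The Rab25 change was positive in all 21, which is therefore not separate support. It was 2.46 in DESeq2 with the block, 3.08 in limma on replicates 2 and 3, 1.90 to 3.37 with 1 library left out (3.37 without control 1, the one called), and 3.09, 2.12 and 2.15 in DESeq2 with the block without replicates 1, 2 and 3.

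Scaling by spike-in reads moved the median of all genes to -0.18, that of the Rab genes to -0.14 and that of the regulators to -0.12. The route medians were then -0.10 (recycling), -0.32 (ER and Golgi), 0.024 (post-Golgi), -0.23 (early endosome), -0.23 (late endosome) and -0.23 (cilium and others), and Rab11a (-0.11), Rab35 (-0.12), Rab5c (-0.090), Rab24 (-0.16) and Gdi2 (-0.023) changed sign. With 1 library left out, the median ran from -0.065 to 0.035 for the Rab genes, from -0.29 to -0.078 for ER and Golgi, from -0.081 to 0.17 for post-Golgi and from -0.17 to 0.044 for cilium and others. The post-Golgi median was 0.16 in edgeR and 0.15 in DESeq2 without the block, 0.14 with a filter at 50, 0.13 on replicates 2 and 3, and 0.13 and 0.15 in DESeq2 with the block without replicates 1 and 2. That of cilium and others was -0.15 on replicates 2 and 3 and -0.16 in DESeq2 with the block without replicate 1. The Rab median in that fit was 0.0080 without replicate 2 and 0.081 without replicate 3.

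With 1 library left out, some changes near 0 took both signs: Rab11a from -0.032 (without knockdown 2) to 0.21 (without knockdown 1), Rab35 from -0.083 (without knockdown 1) to 0.18 (without control 1), Rab2a from -0.15 (without control 1) to 0.012 (without knockdown 1), Rab5c from -0.0087 (without control 2) to 0.21 (without control 1), Rab21 from -0.17 (without knockdown 3) to 0.12 (without knockdown 1), Rab24 from -0.18 (without knockdown 2) to 0.17 (without knockdown 3) and Appl2 from -0.19 (without knockdown 2) to 0.53 (without knockdown 1). The opposite sign was also seen for Rab11a without control 1 (-0.022), Rab35 without control 2 (-0.024) and Rab24 without control 1 (-0.11). On replicates 2 and 3 Rab21 was 0.029 and Rab24 -0.047. DESeq2 with the block gave 0.024 for Rab21 and -0.053 for Rab24 without replicate 1, and 0.010 for Rab2a, -0.063 for Rab24 and -0.059 for Appl2 without replicate 2.

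Of the 52 Rab genes 44 reached 50 normalised reads in at least 3 libraries. The part of depth in the number of calls was not tested.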
